A study of Homo sapiens with 10 samples.

Results

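The 6 genes described here, KMT2A, KMT2B, KMT2C, KMT2D, SETD1A and SETD1B, encode the catalytic subunits of the human COMPASS complexes, which methylate lysine 4 of histone H3 (H3K4). They were taken by name, as 6 of the 20037 protein-coding genes of the RefSeq table (assembly GRCh38.p14, chromosomes 1 to 22, X and Y). For each gene, summits were counted within 1 kb of either end of its RefSeq span, inside the span and within 10 kb of it. A summit is the single base at which a ChIP-seq peak was highest.

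Summits came from chromatin immunoprecipitation with sequencing in HEK293T, a transformed line derived from human embryonic kidney. Nuclei were digested with micrococcal nuclease, and WDR5 was precipitated with its antibody from cells lacking the microprotein EMBOW (KO) and from wild-type (WT) cells. Another group, EMBOW-F, stably expressed a tagged EMBOW that was pulled down through its FLAG tag, beside whatever EMBOW the line makes itself. All 3 groups share the cell line, and the labels give each group as 1 sample and do not say whether the knockout or the expressing line was a single clone. With 1 sample per group there was no replicate check and no test between groups, and all intervals cover counting error only. The WDR5 lists measure neither gene expression nor EMBOW, so they check neither the identity of the line nor the knockout.

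COMPASS enzymes share a core module of WDR5, RBBP5, ASH2L and DPY30, which holds the catalytic subunit and raises its activity. WDR5 binds a short arginine-containing motif that lies ahead of the SET domain, the catalytic domain, of each of the 6 proteins. SETD1A and SETD1B are the enzymes of broad promoter H3K4 trimethylation, KMT2A and KMT2B act with menin at developmental and other selected promoters, and KMT2C and KMT2D act with the demethylase KDM6A, mainly at enhancers. The WDR5 lists show where this shared subunit was called at the genes that encode the enzymes. They do not show whether an enzyme was bound with it.

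The KO WDR5 list held 21055 summits, the EMBOW-F list 93143 and the WT WDR5 list 17660. Each summit carries a −log10 q, the authors' own peak score, which was used only to rank summits within its list. The median −log10 q was 6.28 in KO, 3.25 in EMBOW-F and 6.53 in WT. Rank 1 is the highest score, tied summits share the better rank, and percent rank is the rank divided by the length of the list. The 2 WDR5 lists differ in length and their depth is unknown. Ranks and scores in KO and WT are therefore set side by side and measure no change between them.

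WDR5 was called at an end of 5 of the 6 genes in both genotypes, and no EMBOW-F summit was called near any of the 6. A gene-end summit, one within 1 kb of either end, was found in KO for 5 of 6 genes (83.3%, exact 95% interval 35.9 to 99.6%), beside 53.4% of all protein-coding genes. In WT it was found for the same 5 genes, beside 50.0% of all protein-coding genes. Both lists marked 46.4% of all protein-coding genes. SETD1B was the member without one. Its summits lay inside the gene. As no strand is given for SETD1B, its start was not examined, so this does not show that WDR5 was absent there. The interval for 6 genes holds the background share, so the count is not set apart from it. Within 10 kb of the span, 6 of 6 genes had a summit in KO, beside 67.3% of all protein-coding genes, and 6 of 6 in WT, beside 63.2%.

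The stretches before 4 of the starts are printed here because the summits lie in or beside them and because they differ in base composition. Each is the 250 bases that end just before the RefSeq start, read 5′ to 3′ along the gene (RefSeq, GRCh38.p14). Capitals mark the letters GGGCGG of the SP/KLF motif and CACGTG of the E-box on either strand, with overlapping matches joined. The positions are chr16:30957504-30957753 on the plus strand for SETD1A, chr19:35717753-35718002 on the plus strand for KMT2B, chr7:152436004-152436253 on the minus strand for KMT2C and chr12:49060795-49061044 on the minus strand for KMT2D.
SETD1A: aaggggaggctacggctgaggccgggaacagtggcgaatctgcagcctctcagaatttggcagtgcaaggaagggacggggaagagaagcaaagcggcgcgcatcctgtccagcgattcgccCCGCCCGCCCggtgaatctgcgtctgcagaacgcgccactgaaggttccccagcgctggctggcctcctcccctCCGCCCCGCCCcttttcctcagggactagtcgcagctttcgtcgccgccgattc
KMT2B: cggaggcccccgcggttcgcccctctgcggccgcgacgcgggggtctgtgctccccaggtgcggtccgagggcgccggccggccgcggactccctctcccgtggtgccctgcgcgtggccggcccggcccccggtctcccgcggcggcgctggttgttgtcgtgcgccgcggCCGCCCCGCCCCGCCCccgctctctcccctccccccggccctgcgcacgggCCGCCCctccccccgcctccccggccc
KMT2C: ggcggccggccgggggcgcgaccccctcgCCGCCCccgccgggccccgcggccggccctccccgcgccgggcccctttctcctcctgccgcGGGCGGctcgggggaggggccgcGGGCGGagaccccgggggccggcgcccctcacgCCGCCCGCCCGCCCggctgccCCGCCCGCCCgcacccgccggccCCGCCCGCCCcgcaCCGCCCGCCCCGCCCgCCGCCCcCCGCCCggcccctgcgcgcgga
KMT2D: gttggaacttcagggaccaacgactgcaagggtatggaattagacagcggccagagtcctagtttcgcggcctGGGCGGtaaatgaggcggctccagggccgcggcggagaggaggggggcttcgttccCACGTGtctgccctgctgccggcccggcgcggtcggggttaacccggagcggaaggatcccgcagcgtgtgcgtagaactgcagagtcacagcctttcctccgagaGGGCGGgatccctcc

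A start window of 300 bases (250 before the start and 50 after it) was given for 5 of the 6 genes, and for 22199 starts of protein-coding genes in all. Motifs were searched in it on both strands. The SP/KLF letters were found in 5 of 5 windows, beside 56.3% of all such windows, with 15 overlapping matches in KMT2C, 5 in KMT2B, 4 in SETD1A, 3 in KMT2A and 2 in KMT2D. The E-box CACGTG, the letters read by MYC and its partners, was found in KMT2D (8.34% of all windows), with its first base at position -121 from the start. The ETS letters CCGGAA were found in KMT2A (21.2%) and the YY1 letters AAGATGG in KMT2B (6.04%), where they begin 13 bases after the start. The NF-Y letters CCAAT (34.7%) and GCATGCG, the core of the NRF1 motif (4.63%), were found in 0 of 5. These matches are letters in a window and do not show that a factor was bound.

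The 5 start windows were CpG-rich to different degrees. The window of KMT2C was 88.7% G or C with 56 CpG, and 5 of the 22199 windows, itself included, were as rich in G and C. That of KMT2B was 83.3% (48 CpG), that of KMT2A 76.3% (36 CpG), and those of KMT2D and SETD1A 65.0% each (27 and 30 CpG). The median over all windows was 62.3% with 21 CpG.

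SETD1A (gene ID 9739, plus strand, 30957754 to 30984664), which encodes one of the promoter trimethylases, carried the highest-ranked gene-end WDR5 summit of the 6 genes in each genotype. On chromosome 16 the KO summit at 30957853 had a −log10 q of 32.7 and rank 674, and the WT summit at 30957860 had 45.3 and rank 273. They lay 7 bp apart, 99 and 106 bp after the start. Among genes with a gene-end summit, 94.3% of 10707 had a lower-ranked one in KO and 97.8% of 10011 in WT. WT had a second, weak summit 897 bp before the start (−log10 q 2.47, rank 16186), with the nearest KO summit 996 bp away. The remaining SETD1A summits, 8549 bp (KO) and 8446 bp (WT) before the start, lay 137 and 240 bp inside the 5′ end of ORAI3, a store-operated calcium channel gene.

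SETD1B (gene ID 23067), the paralog of SETD1A, held 5 summits inside its span in each genotype and none within 1 kb of an end. The span (chromosome 12, 121790155 to 121832656, 42.5 kb) joins every RefSeq model of the gene, predicted ones included, and the table gives it no strand. Distances for SETD1B are therefore from the lower end, and the starts of its single transcript models were not used here. The summits closest to it were at 4134 bp in KO and 8161 bp in WT. All 10 lay within the first 14797 bp of the span.

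The highest SETD1B summit in KO was at 121800467 (−log10 q 26.2, rank 1124), and a WT summit lay 6 bp from it (9.93, rank 5505). It ranked above the gene-end summits of KMT2A, KMT2B, KMT2C and KMT2D in KO. Both of these positions lie inside LINC01089, a long non-coding RNA gene on the minus strand within the SETD1B span, as do the KO summits 7985 and 9069 bp from the lower end and the WT summits 176 and 135 bp from them. Next came the KO summit at 121803891 (14.2, rank 4045), with a WT summit 239 bp away (10.4, rank 5177). In KO this summit lay 945 bp before the 5′ end of LINC01089 and in WT 1184 bp before it.

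One SETD1B summit of each genotype had no partner, that is, no summit of the other genotype within 500 bp. The KO summit at 121794289 (−log10 q 11.8, rank 5392) lay 4027 bp from the nearest WT summit, and it lay within 1 kb of the end of another protein-coding gene. The WT summit at 121804952 (9.13, rank 6121) lay 1061 bp from the nearest KO summit. Both scores pass a q of 1e-05, so neither is among the weakest calls of its list. With 1 library per genotype, a call present in a single list does not show a difference between genotypes.

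**Figure D1:**
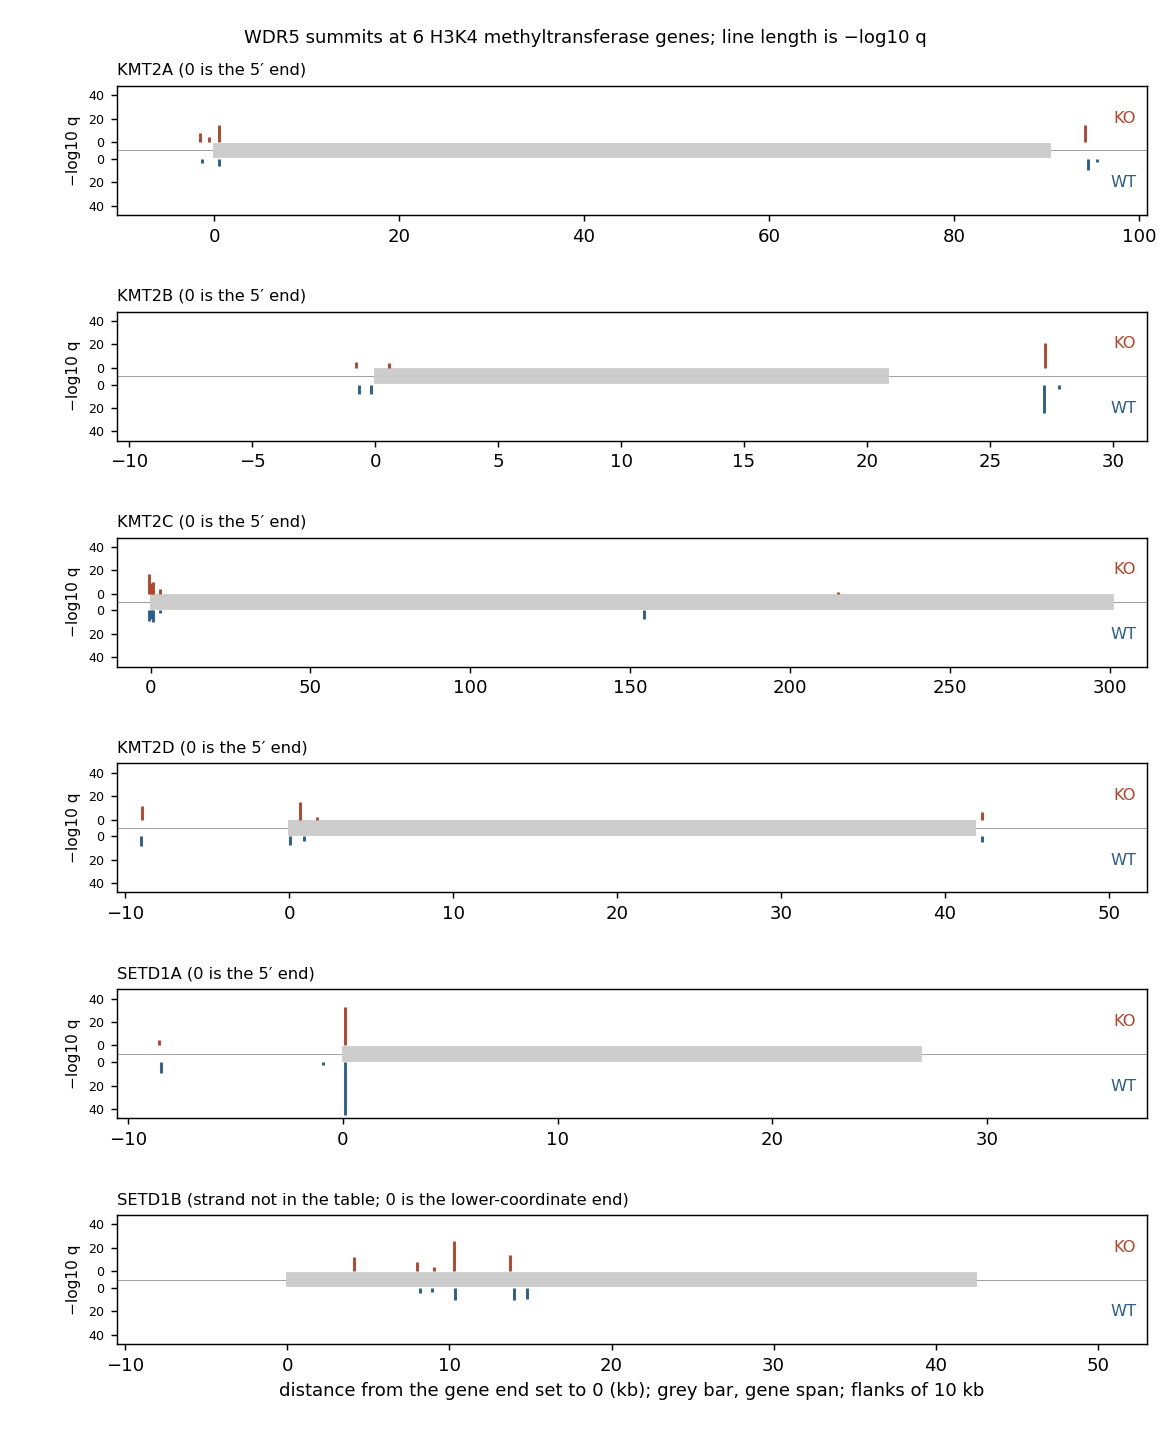
WDR5 summits along the 6 genes with 10 kb on either side, KO above and WT below each grey gene span. The horizontal axis is the distance in kb from the 5′ end (from the lower-coordinate end for SETD1B) and the length of a line is the −log10 q. Summits gather at the start in 5 genes and in the first part of the span in SETD1B, and the tallest lines are those at the start of SETD1A (32.7 in KO, 45.3 in WT).

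KMT2A (MLL1, gene ID 4297, plus strand, 118436492 to 118526832), the gene broken by the leukaemia translocations at its locus, had its highest gene-end summit after the start in both genotypes. On chromosome 11 the KO summit at 118437050 had a −log10 q of 14.4 (rank 3949) and lay 558 bp after the start. The WT summit at 118437001 had 6.22 (rank 9347) and lay 509 bp after it, 49 bp from the KO summit. KO had a second gene-end summit 598 bp before the start (4.12, rank 14531), and the nearest WT summit to it was 686 bp away.

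A further pair at KMT2A lay just outside the 1 kb window, 1473 bp (KO, −log10 q 7.82) and 1284 bp (WT, 3.56) before the start. Past the other end of the gene, near the 5′ end of the antisense RNA gene TTC36-AS1, a KO summit at 118530698 (14.8, rank 3803) and WT summits at 118531023 (9.54, rank 5804) and 118531932 (3.16, rank 14848) fell near the ends of TTC36 and TMEM25. The 5′ end of TTC36-AS1 was 396 bp from the KO summit and 71 bp from a WT summit. No summit of either genotype lay in the rest of the 90.3 kb span.

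KMT2B (gene ID 9757, plus strand, 35718003 to 35738878), the closest paralog of KMT2A, had 2 summits around its start in each genotype, 1 of which had a partner within 500 bp in the other list. On chromosome 19 KO had summits 762 bp before the start (−log10 q 4.73, rank 13446) and 582 bp after it (4.30, rank 14208). WT had summits 675 bp before it (8.05, rank 7013) and 186 bp before it (8.13, rank 6983). The outer pair lay 87 bp apart. The KO summit after the start was 768 bp from any WT summit, and the WT summit at 35717817, which is base 65 of the stretch printed above, was 576 bp from any KO summit.

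Neither KO summit at KMT2B passed a q of 1e-05, and both WT summits did. The summits before the start lie in the gap between KMT2B and the end of ZBTB32, a zinc finger gene, and the outer pair was nearer to ZBTB32 (203 bp in KO, 290 bp in WT). The highest summits of the KMT2B neighbourhood were not its own. A KO summit at 35745267 (21.6, rank 1742) and a WT summit at 35745198 (24.2, rank 954) lay 151 and 220 bp inside the 5′ end of U2AF1L4, a gene of a U2AF-like splicing factor.

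KMT2C (MLL3, gene ID 58508, minus strand, 152134925 to 152436003) carried 3 gene-end summits in each genotype, and the 3 pairs lay 19 to 148 bp apart. On chromosome 7 the highest in KO was 463 bp before the start (152436466, −log10 q 17.1, rank 2860), with a WT summit 444 bp before it (9.18, rank 6102). The highest in WT was 744 bp after the start (152435259, 9.46, rank 5918), with a KO summit 892 bp after it (9.80, rank 6869). The pair between them lay 287 bp (KO, 8.70) and 248 bp (WT, 7.04) after the start. The summit with the highest score was a different one of the 3 in each list.

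Away from its start, KMT2C had 1 pair 3004 bp (KO, −log10 q 3.63) and 3053 bp (WT, 2.52) inside the gene. Over the rest of the 301 kb span there was 1 KO summit, at 152221015 (1.63, rank 20436), and 1 WT summit, at 152281617 (7.21, rank 7939), 60602 bp apart. Parts of KMT2C have near-identical copies near the centromeres of other chromosomes. The sources used here do not give how reads with several matches were treated, so these 2 body summits are uncertain.

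KMT2D (gene ID 8085, minus strand, 49018978 to 49060794), the gene mutated in most cases of Kabuki syndrome, had 1 summit within 1 kb of its start in KO and 2 in WT. On chromosome 12 the KO summit at 49060156 (−log10 q 14.6, rank 3920) lay 638 bp after the start. WT summits lay 72 bp after it (49060722, 7.29, rank 7898) and 933 bp after it (49059861, 3.83, rank 13422). The KO position falls between the 2 WT positions, 295 bp from the outer and 566 bp from the inner one. KO also had a weak summit 1711 bp after the start (2.16, rank 19205), which no WT summit matched within 500 bp.

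At the 3′ end of KMT2D both genotypes had a summit on the same base, 49018498, with a −log10 q of 6.25 (rank 10558) in KO and 5.17 (rank 10697) in WT. It lay 480 bp past the end of KMT2D and 278 bp inside the 5′ end of PRKAG1, which encodes a regulatory subunit of AMP-activated protein kinase. Of all genes with a known strand, 3.79% had a KO summit and 3.16% a WT summit within 1 kb of the 3′ end. A last pair, 8998 and 9061 bp before the start (11.2 in KO, 8.02 in WT), lay 187 and 124 bp from the end of RHEBL1.

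**Figure D2:**
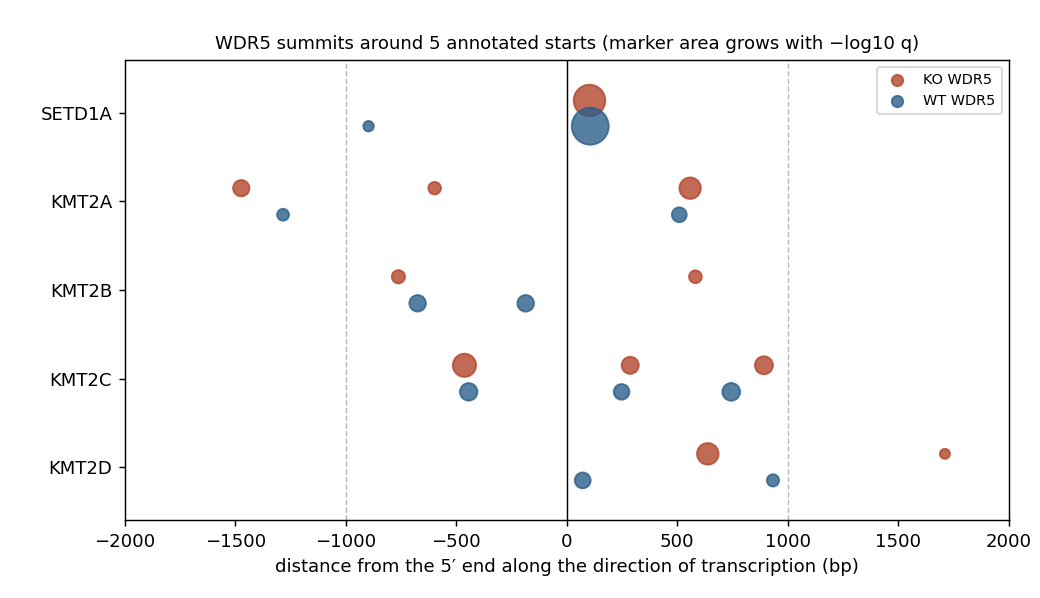
WDR5 summits within 2000 bp of the start of the 5 genes with a known start, KO above WT in each row. The horizontal axis is the distance from the start in bp along the direction of transcription, marker area grows with −log10 q, and dashed lines mark 1000 bp. The SETD1A summits of both genotypes stand 99 and 106 bp after the start, whereas at KMT2B and KMT2D some summits have a partner within 500 bp in the other list and some have none.

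All 5 genes with a known start had WDR5 called there, at different distances. A summit within 1 kb of the start was found in KO and in WT for 5 of 5 genes with a known start, beside 54.2% (KO) and 50.9% (WT) of 15843 such genes. At least 2 summits were found in KO for 3 of them (KMT2A, KMT2B and KMT2C), beside 13.5% of all genes with a known start and 24.9% of those with a start summit. In WT they were found for 4 (KMT2B, KMT2C, KMT2D and SETD1A), beside 11.8% and 23.1%. Several of these summits were weak calls. At a q of 1e-05 or less, at least 2 were left at KMT2C alone in KO, and at KMT2B and KMT2C in WT. The shares of all genes were not counted at that cutoff, and no interval was computed for these counts. The counts of genes with at least 2 summits thus do not set the 5 genes apart. Over all genes with a summit at the start, the highest-ranked one lay at a median of 191 bp after the start in KO (quartiles 81 and 348 bp) and 191 bp in WT (quartiles 89 and 356 bp). SETD1A lay inside both of these ranges and the 4 KMT2 genes outside both, KMT2D in WT on the near side, at 72 bp, closer to the start than SETD1A.

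The order of the highest gene-end summits was not the same in the 2 lists. In KO the percent ranks were 3.20 for SETD1A, 13.6 for KMT2C, 18.6 for KMT2D, 18.8 for KMT2A and 63.9 for KMT2B. In WT they were 1.55 for SETD1A, 33.5 for KMT2C, 39.5 for KMT2B, 44.7 for KMT2D and 52.9 for KMT2A. SETD1A stood first in both, and KMT2D and KMT2A were close neighbours in KO. The median over all genes with a gene-end summit was 30.2 in KO and 33.7 in WT. In KO 4 of the 5 genes stood above the median. In WT 2 did, SETD1A and KMT2C, and KMT2C at 33.5 was almost on it. With 1 library per genotype the spread of these values is unknown.

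**Figure D3:**
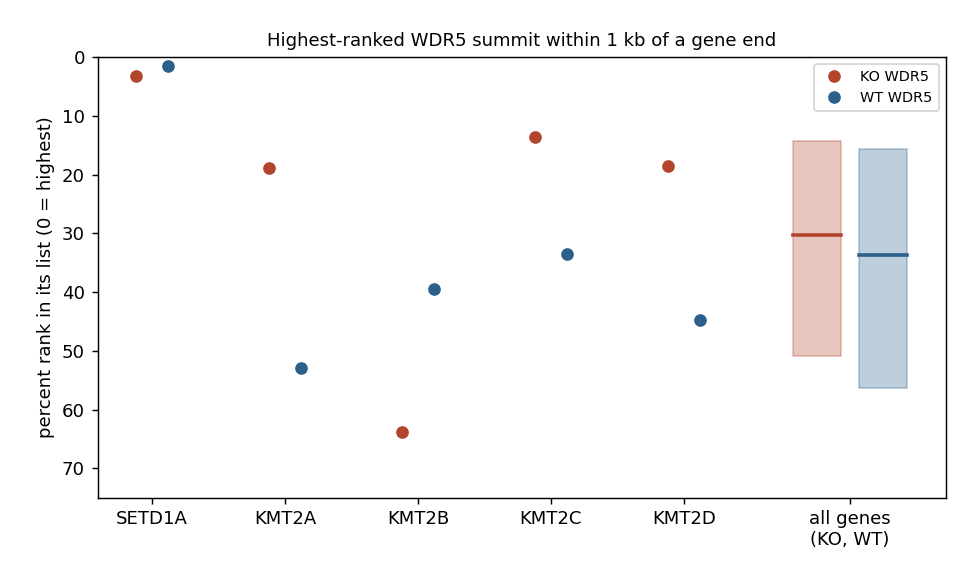
Percent rank of the highest WDR5 summit within 1 kb of a gene end in KO (left of each pair) and WT (right), with 0 at the top as the highest rank. Boxes span the quartiles of all genes with such a summit and the line is the median (30.2 in KO, 33.7 in WT). SETD1A is near the top in both lists, and KMT2B is lowest in KO (63.9) while KMT2A is lowest in WT (52.9).

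Over the 6 genes with their flanks, 23 KO and 25 WT summits were found. The density per gene was lowest at KMT2C, 1.56 summits per 100 kb of span with flanks in both lists, and highest at SETD1B in KO and, at 9.79, at KMT2B in WT. The median density over all protein-coding genes was 1.58 in KO and 1.25 in WT. KMT2C lay below it in KO and above it in WT, and the other 5 genes above it in both. The mean density over all protein-coding genes was higher, 3.13 in KO and 2.66 in WT. In both lists KMT2C lay below that mean and the other 5 genes above it. Gene-end summits numbered 10 in KO and 11 in WT, a further 8 and 7 lay inside the spans, and 5 and 7 lay in the flanks. Of the flank summits, 4 in KO and 6 in WT were within 1 kb of the end of another protein-coding gene, so they belong to the neighbours as much as to the 6 genes. The flank summits not at such an end were the pair before the start of KMT2A.

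The shares of positions near the 6 genes that were called in both genotypes were not set apart from those of the whole lists, which lie inside their intervals. Of the 23 KO summits, 18 had a WT partner within 500 bp (78.3%, 56.3 to 92.5%), beside 59.6% of the whole KO list. Of the 25 WT summits, 18 had a KO partner (72.0%, 50.6 to 87.9%), beside 71.3% of the whole WT list. KO partners lay 0 to 325 bp from the WT summit, with a median of 78.0 bp. SETD1A at 7 bp, SETD1B at 6 bp and KMT2D at 0 bp were the closest pairs. The 5 KO summits without a partner were at KMT2A, KMT2B, KMT2D, SETD1B and inside KMT2C, 1 at each. At a q of 1e-05 or less, 15 of the 23 KO and 17 of the 25 WT summits were kept. Of the whole lists, 60.7% of KO and 61.9% of WT summits passed that cutoff.

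Tagged EMBOW was not called near any of the 6 genes. There were 0 EMBOW-F summits within 10 kb of the 6 spans, beside 6.67% of all protein-coding genes that had one, and 0 within 1 kb of an end, beside 1.40%. Thus 93.3% of all genes likewise had none within 10 kb, and the count of 0 does not set the 6 genes apart. The nearest EMBOW-F summit was 0.734 Mb from KMT2C, 1.10 Mb from SETD1A, 1502044 bp from KMT2D, 3.21 Mb from KMT2A, 3.72 Mb from SETD1B and 7.18 Mb from KMT2B. All 6 lay farther than 700 kb, as did 66.7% of all protein-coding genes. The median distance over all protein-coding genes was 1.55 Mb for EMBOW-F, and 3 of the 6 genes lay nearer than that.

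**Figure D4:**
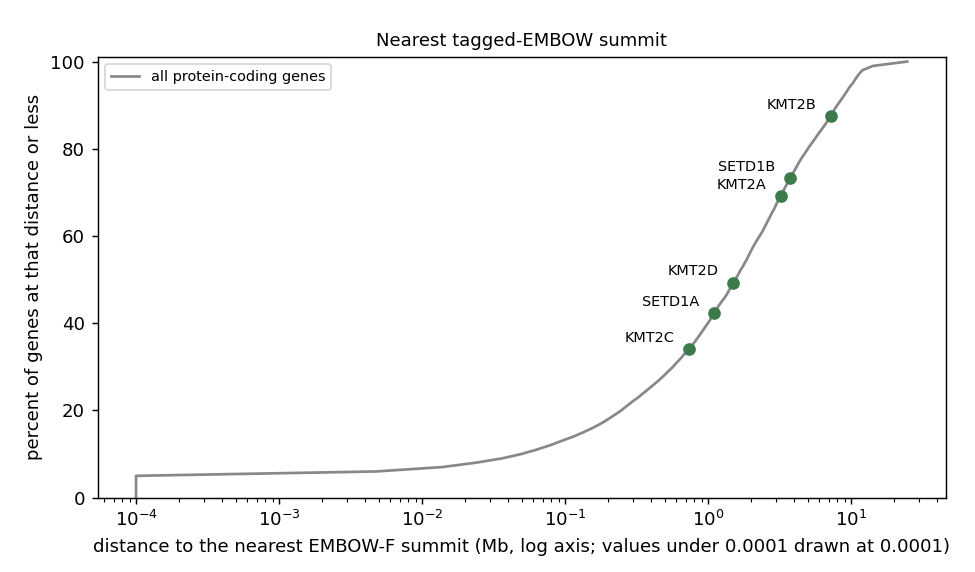
Distance from each gene span to the nearest EMBOW-F summit in Mb on a log axis, against the percent of all 20037 protein-coding genes at that distance or less. The grey line is all genes and the points are the 6 genes, which run from 0.734 Mb (KMT2C) to 7.18 Mb (KMT2B) and lie along the middle and upper part of the curve.

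The authors' deposited table of new WDR5 targets said to depend on EMBOW was compared by position. It holds 18665 transcript models, chosen by the authors on these samples. None of the 6 genes had a listed 5′ end within 1 kb of either end, beside 10.3% of all protein-coding genes. Near 2 of them, KMT2A and SETD1B, a listed 5′ end did lie within 1 kb of a KO summit, beside 12.5% of all protein-coding genes.

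At KMT2A the listed transcript runs on the minus strand, away from KMT2A, from a 5′ end at 118435206, which is 1286 bp before the KMT2A start. It has a single exon (ENST00000532619.1), and its 5′ end lay 187 bp from a KO summit and 2 bp from a WT summit. At SETD1B 12 listed transcripts, all on the minus strand, began between 121801007 and 121803906, in and beside LINC01089. Of these, 9 had their 5′ end within 1 kb of a KO summit and 4 within 1 kb of a WT summit. The 5′ ends counted for KO only lay 945 to 981 bp from a KO summit and 1184 to 1220 bp from a WT summit. These counts thus differ by distances close to the 1 kb limit. The 5′ end of ENST00000538335.1 lay 15 bp from the KO summit at 121803891 and 224 bp from a WT summit. A WT summit was thus also called near listed 5′ ends at both genes, and the sources used here do not give how the authors chose the transcripts.

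Genes of other COMPASS subunits were counted in the same way, beside 53.4% of all protein-coding genes in KO and 50.0% in WT. Of the 4 core subunit genes (WDR5, RBBP5, ASH2L and DPY30) 4 had a gene-end summit in KO and 3 in WT, and RBBP5 was the one without a WT summit, the nearest lying 89092 bp away. DPY30 held the highest-ranked one in KO, at rank 123. Of 12 accessory subunit genes 12 had one in KO and 8 in WT. The exact intervals of the WT shares of both lists, and of the KO share of the 4 core genes, hold the share of all genes. The interval of the KO share of the 12 accessory genes, 73.5 to 100%, lies above it. The accessory genes without a WT one were CXXC1, which targets SETD1 complexes to CpG islands, BOD1L1, HCFC1 and MEN1 (menin). HCFC1 and MEN1 had a WT summit 1060 and 1030 bp from an end, just outside the window. The KO summit of MEN1 lay 998 bp from an end, just inside it. PSIP1, a chromatin reader that binds menin, was the highest in KO at rank 664, close to the 674 of SETD1A.

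Most genes of the opposing and related enzymes were marked too. Of 5 H3K4 demethylase genes 5 had a gene-end summit in both genotypes, the highest in KO being that of KDM5A at rank 2405. The exact interval of that share, 47.8 to 100% in each genotype, holds the share of all protein-coding genes (53.4% in KO, 50.0% in WT). Of 29 genes of other SET-domain proteins with DOT1L, 24 had one in KO and 23 in WT, the highest in KO being SETD5 at rank 452. NSD1, SETD3, SUV39H1 and the muscle gene SMYD1 had none in either, KMT5C and SETD2 (the H3K36 trimethylase) had one in KO and not in WT, and SMYD3 had one in WT and not in KO. SETD2 had a WT summit 1471 bp from an end, and the nearest summits to an end of SUV39H1 lay at 1286 bp (KO) and 1369 bp (WT). Among the 29, EZH2 alone (3.45%, exact interval 0.0873 to 17.8%) had EMBOW-F called within 1 kb of an end, at 170 bp. That interval holds the 1.40% of all protein-coding genes with such a summit, so the count is not set apart from it. The 5 of 6 catalytic genes marked in each genotype (83.3%) thus stood beside 82.8% of the 29 in KO and 79.3% in WT. The exact WDR5 intervals of the 29, 64.2 to 94.2% in KO and 60.3 to 92.0% in WT, lie above the shares of all protein-coding genes.

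**Figure D5:**
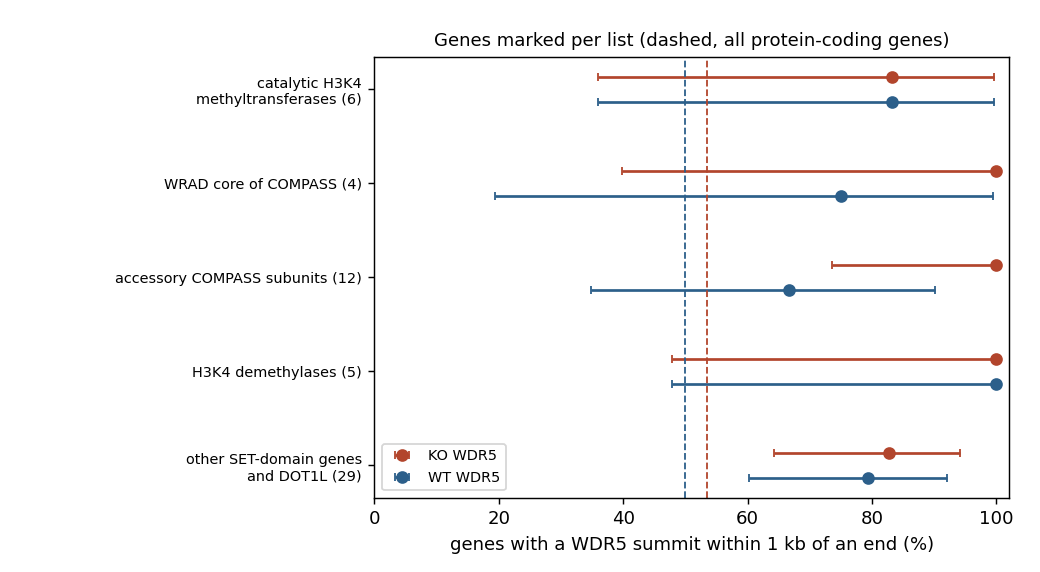
Percent of genes with a WDR5 summit within 1 kb of an end, KO above WT, for the 6 catalytic genes and 4 related gene lists, with exact 95% intervals. Dashed lines mark all protein-coding genes (53.4% in KO, 50.0% in WT). The intervals of the catalytic genes hold these lines. The 29 other genes stand at 82.8% in KO and 79.3% in WT, with intervals above the lines, as is that of the accessory genes in KO.

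The genes most like each member were those with the smallest sum of absolute differences in the percent rank of the highest gene-end summit over the 2 WDR5 lists. Likeness here is closeness of 2 ranks among about 9302 candidates and nothing more. For SETD1A they were EME2 and MRPS34, neighbours that share their summit, both 0.345 percentage points away. For KMT2A they were NOL11 (0.751 points) and FEZ1 (0.871), and for KMT2B H2AC21 (0.119) and CIAO3 (0.210), whose KO summits tie with that of KMT2B at rank 13446. For KMT2C they were ZNF70 (0.457) and UCKL1 (0.492), and for KMT2D KAZALD1 (0.228) and UBE2E2 (0.867).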

How the data were processed

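The authors' deposited peak lists for WDR5 in KO and WT cells and for tagged EMBOW hold 1 bp summits with a −log10 q, the form MACS2 writes. The unit follows from the deposited values, since the lowest −log10 q was near 1.30, that of a q of 0.05. The submitters' processing notes name hg38, deepTools 3.5.1, MACS2 2.2.7.1 and Bowtie2 2.4.5 without role or setting. The sources used here do not give the input, any pooling or the handling of multiply matching reads. The EMBOW-F list was matched to the only FLAG ChIP of the labels. Depth is unknown, since no counts are given, and list length may follow depth. Other libraries were not analysed here. The deposited transcript table is the authors' own BED list, whose score column, which is 0 throughout, was not used, and in it 1 damaged chromosome name was repaired.

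Gene ends and starts came from RefSeq (GRCh38.p14), where 15843 of 20037 genes had a strand. Calls were counts and shares with exact (Clopper-Pearson) 95% intervals, with no test between groups. The 6 genes and the related lists were chosen with earlier results of these data known. The genes named were the 6 members, list genes lacking a summit in either WDR5 list, each list's highest in KO, neighbours within 1 kb of a gene-end summit, and the 2 nearest in percent rank. One neighbouring gene is not reported here. EZH2 and the neighbours of other summits were named after their values were seen. The search for the WDR5-binding motif in the proteins that had been planned was not run, as no protein sequences were used here. Counting steps were tested on simulated data, with 100 of 100 planted summits recovered and 0 mismatches over 200 genes. Tools were matplotlib 3.10.9, scipy 1.17.1, pandas 2.3.3, numpy 2.4.6 and Python 3.11.15. Alternatives were other windows, partner distances, a q of 1e-05 and a KO list shortened to the length of the WT list.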

Additional observations from a re-analysis of the deposited data

How the results depend on the processing

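With a gene-end window of 500 bp, 3 genes had a KO gene-end summit in place of 5 (KMT2A and KMT2B were lost), and 4 had a WT one (KMT2A was lost). At a q of 1e-05 or less the KO count was 4, without KMT2B, and the WT count stayed at 5. That cutoff left 15 KO summits near the genes in place of 23, and 11 partnered summits in either list in place of 18, by construction. Counting inside the spans only left 14 KO and 13 WT summits, since gene-end and neighbour summits outside the spans drop out. The other 23 of 29 alternative counts stayed within 1.5 times the main one. Among these, every EMBOW-F count was 0 by construction, since no EMBOW-F summit lay within 10 kb of the spans. Percent ranks of the highest gene-end summits did not change with a window of 2 kb. All 10 were larger when ranked among gene-end summits only, by 0.120 to 13.7 points. All 5 KO values were larger with the KO list shortened, by 0.620 to 12.2 points. That rise is by construction, since shortening removes the lowest scores, keeps these ranks and divides them by a smaller length. No paired analysis was possible because each group has 1 sample. The lists hold no read counts, so depth limits what a missing summit can show.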
